A study of Homo sapiens with 4 samples.

Results

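TFE3 reads a short DNA sequence, the E-box, and it shares that sequence with other transcription factors of the same structural class. The genes examined here are 10 such factors, taken by name, with earlier results of these data known: MYC, MAX, MXD1, MXD4, MXI1, MNT, MLX, USF1, USF2 and BHLHE40. All 10 are among the 34080 genes with a matched transcript and among the 13569 genes that passed the filter on low counts. They were compared between HK-2 cells, a line immortalised from the proximal tubule of a human kidney, that were kept for 24 h either in 0.2 microg/ml doxycycline, named Doxy(+), or in medium without doxycycline, named Doxy(-). Cells of both groups carry a Tet-On system, kept under Blasticidin S and Puromycin, in which doxycycline induces HA-tagged PRCC-TFE3, the fusion protein of a subtype of renal cell carcinoma. There were 2 libraries of each group, with the numbers 1 and 2. Whether these came from separate cultures or from clones is not given in the labels, so p-values measure the spread between these libraries, which may be technical. Cells without the transgene were not analysed here, so doxycycline and PRCC-TFE3 cannot be told apart.

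These factors carry a basic helix-loop-helix region next to a leucine zipper or, in BHLHE40, an Orange domain, and they bind DNA as pairs. MYC binds only when paired with MAX, and the pair activates genes for growth, metabolism and ribosome production. MXD1, MXD4, MXI1 and MNT also pair with MAX, bring in co-repressors of the SIN3 type and act against MYC. MLX is the partner of the glucose sensors MLXIP (MondoA) and MLXIPL (ChREBP), USF1 and USF2 pair with each other, and BHLHE40 is a repressor that works in the circadian clock and in hypoxia. TFE3 and its relatives prefer E-boxes with the core CACGTG, the core that MYC:MAX and USF also bind.

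The libraries held between 12654233 and 15012743 estimated reads on matched genes, and the estimated count of a single factor in a library ran from 216 for MXD1 to 3483 for MYC. CPM stands for a count scaled to 1000000 reads after TMM adjustment. The renal epithelial markers PAX8, KRT8, KRT18 and EPCAM were abundant, but CDH1 was at most 0.853 CPM and PAX2 had under 3 counts in every library, and 4 of 11 proximal tubule markers (LRP2, AQP1, SLC22A6 and HNF4A) were also under 3 counts in each library. The summed proximal tubule markers were 247 and 256 CPM in Doxy(-) against 365 and 379 CPM in Doxy(+), mostly DPP4, and the renal epithelial markers were 1281 and 1299 against 1198 and 1218 CPM. The 5 fibroblast markers summed to between 186 and 204 CPM, mostly LUM, the leukocyte markers to 144 and 150 against 191 and 189 CPM, nearly all CD68, which is also a lysosomal protein, and the endothelial markers to at most 1.04 CPM. CD3E, CDH5 and KDR had 0 counts in every library. The part of these markers in the results was not tested, and in bulk RNA a change in the mix of cells and a change per cell cannot be told apart.

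The transgene was checked first. TFE3 was measured at 66.9 and 69.1 CPM in Doxy(-) against 367 and 322 CPM in Doxy(+), an increase of 2.34 on the log2 scale (SE 0.072, adjusted p 4.78e-05 in edgeR). PRCC was at 50.2 and 47.2 CPM in Doxy(-) against 47.7 and 60.1 CPM in Doxy(+), and its groups overlapped (log2 fold change 0.15 with an SE of 0.112, adjusted p 0.413 in edgeR).

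Among the 10 factors, MYC fell, and USF2, MAX and BHLHE40 rose, in edgeR's quasi-likelihood test with Benjamini-Hochberg adjustment over all genes tested. These 4 of 10 stand beside 19.3% of all genes tested that passed an adjusted p of 0.05, with 9.76% higher and 9.53% lower in Doxy(+). Of the genes whose mean reached 10 CPM, as that of all 10 factors did, 24.6% passed, with 11.9% higher and 12.7% lower. Past the fold change limit of the study as well, a log2 fold change over 1 in size, were 0 of the 10 factors and 1.98% of all genes, whereas 5 of the 10 had an unadjusted p under 0.05, as did 33.4% of all genes and 40% of those whose mean reached 10 CPM. DESeq2 gave 0 past both limits as well. The median log2 fold change of the 10 was 0.16, against 0.00062 over all genes tested. The CPM values of the groups did not overlap for 8 of the 10, with 6 higher and 2 lower in Doxy(+), but with 2 libraries a group the same held for 61.1% of all genes, 31.1% higher and 30% lower. The number higher was 1, USF2 alone, without Doxy(+) 1 and also without Doxy(+) 2, where MAX and BHLHE40 lost significance, while MYC passed in each of these fits.

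**Figure D1:**
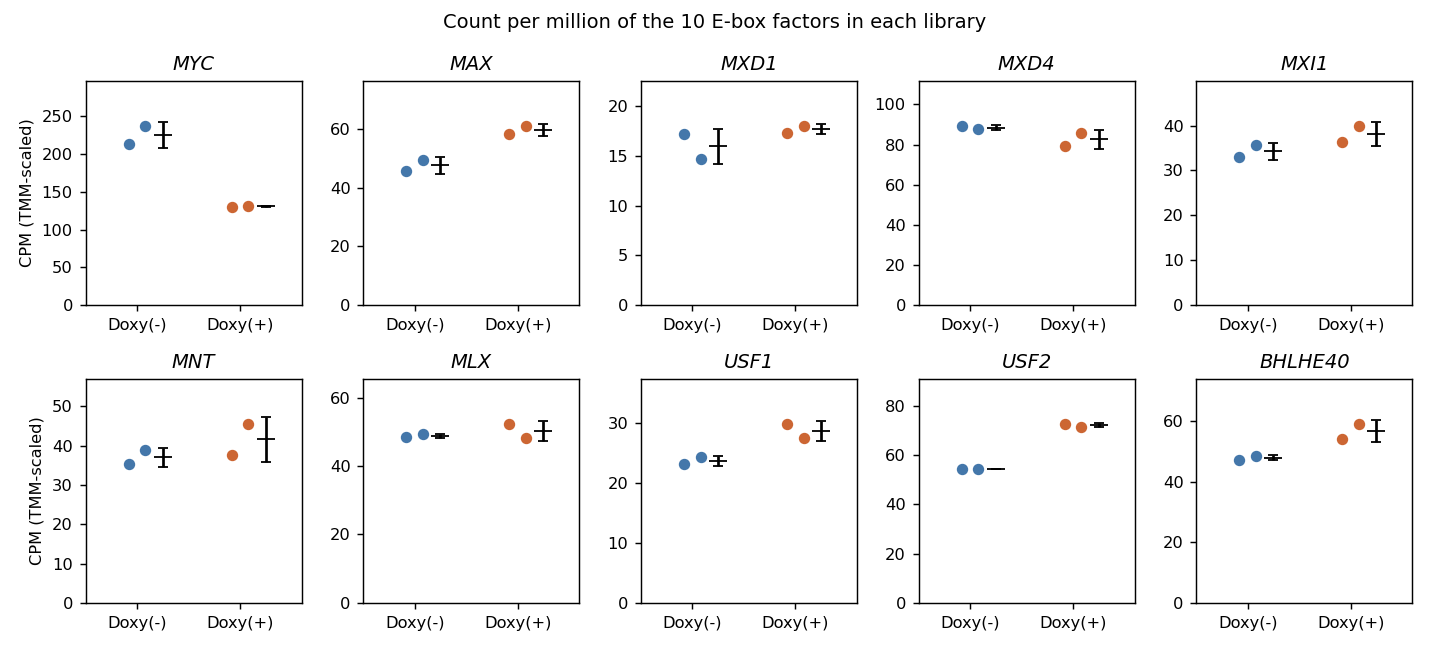
CPM (TMM-scaled, y axis from 0) of each factor in the 2 Doxy(-) and 2 Doxy(+) libraries, 1 point per library, with the mean and SD of the group as bar and whiskers; each panel has its own scale. MYC drops from 213 and 237 CPM to 130.2 and 131 CPM, while USF2 goes from 54.2 CPM in each Doxy(-) library to 72.9 and 71.6 CPM.

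MYC (ENSG00000136997.22, chromosome 8, 127735434 to 127742951, plus strand), the activator of the network, had the largest change of the 10. It was measured at 213 and 237 CPM in Doxy(-) against 130.2 and 131 CPM in Doxy(+). Both Doxy(+) libraries were far below both Doxy(-) libraries, and they were closer to each other than the Doxy(-) libraries were. The means were 225 ± 16.9 and 131 ± 0.696 CPM (SD, n = 2 each), a log2 fold change of -0.78 (SE 0.0573, 95% interval -0.92 to -0.64, edgeR adjusted p 0.000615), or a 1.72-fold higher level in Doxy(-). Its lowest and highest values over the 15 other settings were -0.86 and -0.71, and it passed the test in every setting. By p it was number 183 of all genes tested.

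MAX (ENSG00000125952.21, chromosome 14, 65006174 to 65102695, minus strand), the shared partner of MYC and of its antagonists, moved the other way. Its values were 45.5 and 49.5 CPM in Doxy(-) against 58.2 and 61.0 CPM in Doxy(+). The groups did not overlap, although the gap between them was smaller than for MYC. The log2 fold change was 0.32 (SE 0.0656, 95% interval 0.16 to 0.48, edgeR adjusted p 0.0203), from a mean of 47.5 to 59.6 CPM (n = 2 each). The adjusted p rose to 0.0685 without Doxy(+) 1 and 0.118 without Doxy(+) 2, in a range of 0.0113 to 0.119 over all settings. Exons of MAX overlap those of FNTB and CHURC1-FNTB on the other strand, and whether the counting used the strand is not given in the sources used here.

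On the TPM scale, which divides by transcript length and so allows a comparison between genes, MYC stood at 3.66 and 3.57 times MAX in the Doxy(-) libraries. In the Doxy(+) libraries it stood at 1.61 and 1.65 times MAX. The ratio was thus lower in both induced libraries, with ranges of the groups that were far apart.

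The 4 antagonists among the 10 factors, which compete for MAX, did not pass the test. From the rest of the network, MGA, which rose, and MXD3, which did not pass, are given below. MXD4 (chromosome 4, 2247432 to 2262109), the most abundant of them, was at 89.3 and 87.6 CPM in Doxy(-) against 79.4 and 85.9 CPM in Doxy(+) (log2 fold change -0.097, 95% interval -0.24 to 0.040, edgeR adjusted p 0.290). MXI1 (chromosome 10, 110207605 to 110287365) was at 32.9 and 35.6 against 36.3 and 39.9 CPM, with a log2 fold change of 0.15 and an interval of -0.038 to 0.34. MNT (chromosome 17, 2384073 to 2401104), the member of the group that is made in resting and in growing cells alike, was at 35.4 and 38.8 against 37.6 and 45.6 CPM, with overlapping groups and a log2 fold change of 0.16 (interval -0.091 to 0.42). None of these intervals reached the size of the change of MYC.

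MXD1 (chromosome 2, 69897688 to 69942945) was the least abundant, at 17.2 and 14.7 CPM in Doxy(-) against 17.3 and 18.0 CPM in Doxy(+). The log2 fold change of its count was 0.15 (interval -0.13 to 0.42, edgeR adjusted p 0.414), whereas length-scaled counts gave 0.42 and limma on log2(TPM + 0.1) gave 0.45, neither past the test. MXD1 shares exon sequence on its own strand with SNRNP27, so its reads can be divided between these genes.

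Summed over the 4 antagonists, the TPM was 100.4 and 108 in Doxy(-) against 106 and 112 in Doxy(+). For these 4 the ranges overlapped, so this sum did not separate the groups. MXD3 (TPM 17.4 and 21.1 against 19.2 and 13.3) and MGA (18.3 and 18.8 against 26.4 and 24.2) are not in it. With both added, the ranges no longer overlapped, but the gap between them was smaller than the spread within Doxy(-). With 2 libraries a group, the CPM values of 61.1% of all genes tested did not overlap either. Divided by the TPM of MYC in the same library, the sum of the 4 came to 0.696 and 0.683 in Doxy(-) against 1.19 and 1.23 in Doxy(+). These ratios are a description of the libraries, without a test, and they follow the level of MYC.

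MLX (ENSG00000108788.12, chromosome 17, 42567072 to 42573239, plus strand), the partner of the glucose-sensing factors, was at 48.4 and 49.3 CPM in Doxy(-) against 52.4 and 48.2 CPM in Doxy(+). The Doxy(-) values lay between the Doxy(+) values. Its log2 fold change of 0.042 (SE 0.0636, 95% interval -0.11 to 0.20, edgeR adjusted p 0.695) was the smallest in size of the 10, and its sign turned in some settings. PSMC3IP overlaps its exons on the other strand.

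USF2 (ENSG00000105698.16, chromosome 19, 35268962 to 35279821, plus strand) had the largest increase. It was at 54.2 CPM in each Doxy(-) library and at 72.9 and 71.6 CPM in Doxy(+). The spread within either group was small beside the gap between them. The means of 54.2 ± 0.00561 and 72.3 ± 0.850 CPM gave a log2 fold change of 0.41 (SE 0.0511, 95% interval 0.29 to 0.54, edgeR adjusted p 0.00372). The call was lost only under limma on log2(TPM + 1) without a filter on low values, at an adjusted p of 0.0753, in a range of 4.65e-05 to 0.0753 over all settings.

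USF1 (ENSG00000158773.14, chromosome 1, 161039251 to 161045977, minus strand), with which USF2 pairs, was at 23.2 and 24.4 CPM in Doxy(-) against 30.0 and 27.6 CPM in Doxy(+). The groups did not overlap. With a log2 fold change of 0.28 (SE 0.0819, unadjusted 95% interval 0.076 to 0.48) its edgeR adjusted p was 0.0673, just over the threshold, and it passed in 0 of the settings. The TPM of USF2 was 2.51 and 2.27 times that of USF1 in Doxy(-) against 2.84 and 3.11 times in Doxy(+).

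BHLHE40 (ENSG00000134107.5, chromosome 3, 4979437 to 4985323, plus strand), the repressor, was at 47.2 and 48.5 CPM in Doxy(-) against 54.1 and 59.1 CPM in Doxy(+). The groups did not overlap, and the Doxy(+) libraries lay further apart than the Doxy(-) libraries. From 47.9 ± 0.901 to 56.6 ± 3.54 CPM its log2 fold change was 0.24 (SE 0.065, 95% interval 0.084 to 0.40), with an edgeR adjusted p of 0.0494 that is barely under the threshold. It passed in 4 of 16 settings, the reported one included, and the adjusted p ranged from 0.0420 to 0.341. Leaving out any 1 of the 4 libraries took it over the threshold, with log2 fold changes from 0.18 to 0.30.

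**Figure D2:**
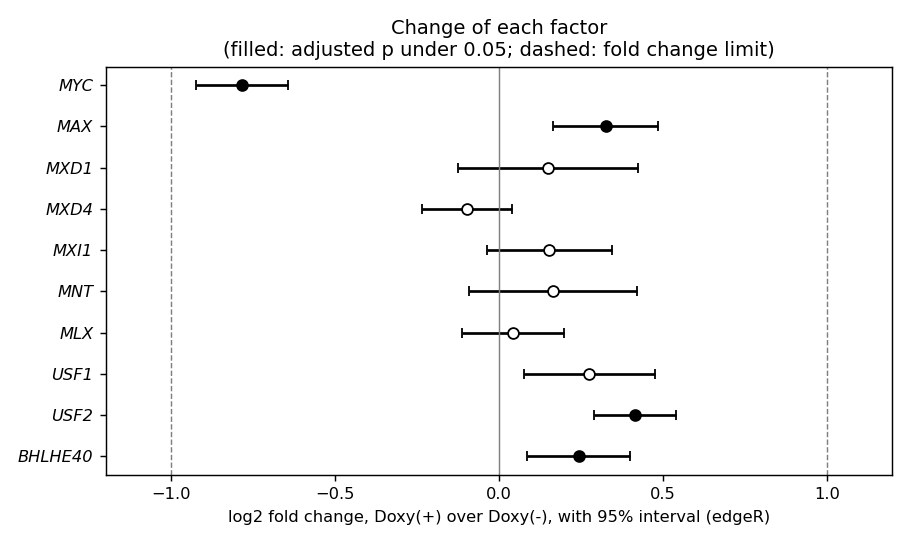
Log2 fold change of each factor, Doxy(+) over Doxy(-), from edgeR (x axis), with its 95% interval; filled points passed an adjusted p of 0.05 and dashed lines mark the fold change limit of 1. MYC lies at -0.78, and no interval reaches a limit.

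Its closest relative BHLHE41, which was singled out after its values were seen, rose more. It was at 12.4 and 11.2 CPM in Doxy(-) against 19.1 and 23.0 CPM in Doxy(+), a log2 fold change of 0.84 with an SE of 0.13 (adjusted p 0.00775 in edgeR). The TPM of BHLHE40 was 2.05 and 2.27 times that of BHLHE41 in Doxy(-) against 1.23 and 1.49 times in Doxy(+), so the 2 repressors lay closer together after induction.

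Whether the promoters of these E-box factors hold an E-box themselves was read from RefSeq promoter entries on GRCh38.p14, each covering 250 bases before to 50 after a start. Of the 10 factors, 9 matched with 13 windows, and MYC did not. The core CACGTG, which reads the same on both strands, was found in 4 of the 13 windows, against 7.26% of all 35116 windows. These windows belonged to 4 factors (BHLHE40, MXD4, MNT and MLX). The form extended by GTCACGTG (either strand), nearer to the site that TFE3 prefers, was in the MLX window alone, against 2.4% of all windows, and TCACGTGA was in 0 of the 13, against 0.98%. All 4 CACGTG matches lay upstream of the start, and the stretches shown overlap no annotated exon. Of the 4 factors that hold the core, only BHLHE40 rose, while MXD4, MNT and MLX did not pass. The stretch around each match is shown with the core in capitals, in the gene's direction, to let the flanking bases be compared:
BHLHE40, chr3:4979187-4979209, plus strand: tccaaCACGTGagactcatgtga
MXD4, chr4:2262330-2262359, minus strand: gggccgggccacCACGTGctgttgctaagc
MNT, chr17:2401236-2401265, minus strand: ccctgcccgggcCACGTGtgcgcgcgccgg
MLX, chr17:42567038-42567067, plus strand: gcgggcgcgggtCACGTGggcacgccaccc

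The related core CATGTG, with CACATG as its other strand, was in 2 of the 13 windows, those of BHLHE40 and USF2, against 11.1% of all windows. The general form CANNTG, which includes all of the above, was in 9 of the 13, against 68.7%. These 9 windows belonged to 8 factors, and MAX, which rose, held none of these forms in its windows. The windows of MAX and of MXD1 lie inside the annotated genes and overlap their exons. The bases before the annotated start of these genes were thus not searched. USF2, the factor with the largest increase, and the related pair BHLHE40 and BHLHE41 are shown with the 250 bases before the start. Capitals mark CACGTG or CATGTG and its complement. BHLHE40 holds CACGTG 245 bases and CATGTG 234 bases upstream, inside the span of the antisense gene BHLHE40-AS1 but outside its exons. BHLHE41 holds CACGTG 48 bases upstream, within the span of SSPN on the other strand, and an exon of the gene ENSG00000256894 overlaps its 250 bases, and USF2 holds CACATG 46 bases upstream.
BHLHE40, chr3:4979187-4979436, plus strand: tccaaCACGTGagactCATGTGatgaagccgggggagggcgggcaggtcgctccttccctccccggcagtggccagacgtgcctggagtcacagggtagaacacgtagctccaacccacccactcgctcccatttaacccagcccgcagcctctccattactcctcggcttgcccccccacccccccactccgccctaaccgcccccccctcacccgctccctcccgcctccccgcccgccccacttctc
BHLHE41, chr12:26125038-26125287, minus strand: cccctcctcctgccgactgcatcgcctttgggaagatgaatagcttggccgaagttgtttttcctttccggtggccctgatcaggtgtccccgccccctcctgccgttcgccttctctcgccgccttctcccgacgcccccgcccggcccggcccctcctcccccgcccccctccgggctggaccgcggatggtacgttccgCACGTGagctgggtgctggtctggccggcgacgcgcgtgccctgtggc
USF2, chr19:35268712-35268961, plus strand: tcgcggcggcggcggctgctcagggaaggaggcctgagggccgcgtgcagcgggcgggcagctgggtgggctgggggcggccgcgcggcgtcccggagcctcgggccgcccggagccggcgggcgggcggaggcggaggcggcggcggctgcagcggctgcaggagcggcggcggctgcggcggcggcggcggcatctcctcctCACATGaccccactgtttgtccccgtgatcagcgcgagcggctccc
A match describes these letters in these windows and does not show binding.

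By level per length, MYC led the 10 factors in Doxy(-) at 151 ± 9.76 TPM, above USF2 at 72.7 ± 5.07 and MXD4 at 55.8 ± 1.17 TPM. TFE3 stood at 35.7 ± 1.16 TPM, below MAX at 41.8 ± 3.42 TPM. Next came MLX at 33.7 ± 0.227, USF1 at 30.6 ± 4.36 TPM, then MXI1 at a mean of 26.9 TPM, and the ranges of neighbours among these overlapped. BHLHE40 at 22.0 ± 0.470, MNT at 15.9 ± 1.86 and MXD1 at 5.52 ± 0.388 TPM closed the order without overlap.

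In Doxy(+) the top of this order was different. TFE3 came first at 262 ± 18.6 TPM, USF2 followed at 105 ± 4.22 TPM, and MYC came after it at 90.3 ± 1.17 TPM. USF2 was below MYC in each Doxy(-) library, at 0.480 and 0.483 of its TPM, and above it in each Doxy(+) library, at 1.14 and 1.18 of its TPM. MXD4 (55.9 ± 0.310 TPM) and MAX (55.4 ± 0.355 TPM) came next, within 1 TPM of each other. From USF1 to MXD1, only MXI1 at 27.5 ± 2.34 and BHLHE40 at 26.1 ± 2.62 TPM overlapped with their neighbour.

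The TPM of all 10 factors together was 436 and 476 in Doxy(-) against 447 and 461 in Doxy(+), and the ranges overlapped. Within that sum MYC made up 33.1% and 33.2% in Doxy(-) against 20.0% and 19.8% in Doxy(+). The TPM of TFE3 was 0.0800 and 0.0768 of the sum in Doxy(-) against 0.616 and 0.541 in Doxy(+). The level of TFE3 per length depends on which of its transcripts the reads of the transgene were placed on. TFE3-203, of 1058 bases, took 6.30% and 6.88% of the TFE3 count in Doxy(-) against 26.2% and 28.7% in Doxy(+). TFE3-204, of 3274 bases, took 39.2% and 32.9% against 61.8% and 58.6%. The coding TFE3-201 had estimated counts of 464 and 604 against 551 and 534.

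**Figure D3:**
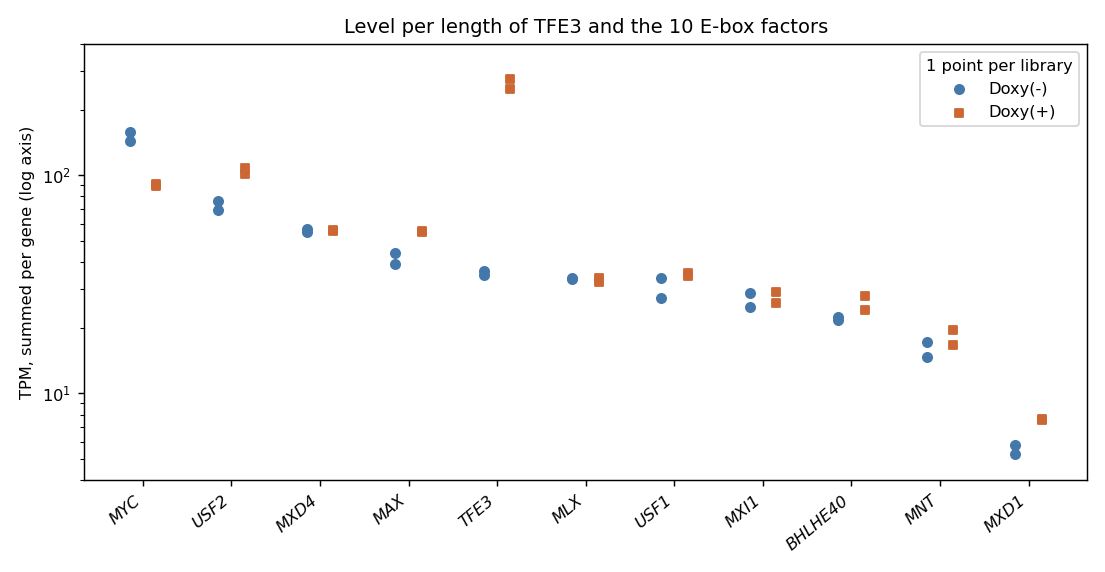
TPM summed per gene (log axis) of TFE3 and the 10 factors, ordered by their mean in Doxy(-), with 1 circle per Doxy(-) and 1 square per Doxy(+) library. TFE3 moves from 34.9 and 36.5 TPM to 276 and 249 TPM, above all 10 factors. USF2 passes MYC on this scale per length, but not in CPM.

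At the level of single transcripts the 10 factors had 94 identifiers, of which 45 passed the filter on low counts and 0 passed the test. The smallest adjusted p was 0.282, and 6 of the 45 had an unadjusted p under 0.05, against 9.46% of 51663 transcripts tested. In all, 9 of these transcripts passed (0.0174%), far fewer than among genes. MYC was divided mainly between MYC-202 and MYC-205, and each of them was lower in both Doxy(+) libraries, with estimated counts of 1353 and 1976 against 869 and 745 for MYC-202, and of 1366 and 1472 against 794 and 1010 for MYC-205.

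Within USF1, the share of USF1-203 was higher in both Doxy(+) libraries, which was noticed after its values were seen. Shares were not tested. The coding transcript USF1-203 had estimated counts of 0.00484 and 0.131 in Doxy(-) against 181 and 79.0 in Doxy(+). USF1-202 had 163 and 99.1 in Doxy(-) against 53.5 and 101 in Doxy(+), so its groups overlapped. USF1-203 did not pass (edgeR adjusted p 0.282), and its Doxy(+) libraries differed from each other. MLX-202 took 32.2% of the MLX count in Doxy(-) 1 and under 0.001% in Doxy(-) 2, a difference within a group. Such estimates rest on how the authors' quantifier divided reads shared between isoforms. The main coding transcripts of USF2, USF2-201 and USF2-202, kept between 35.2% and 45.0% and between 15.4% and 19.2% of its count, with overlapping groups.

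**Figure D4:**
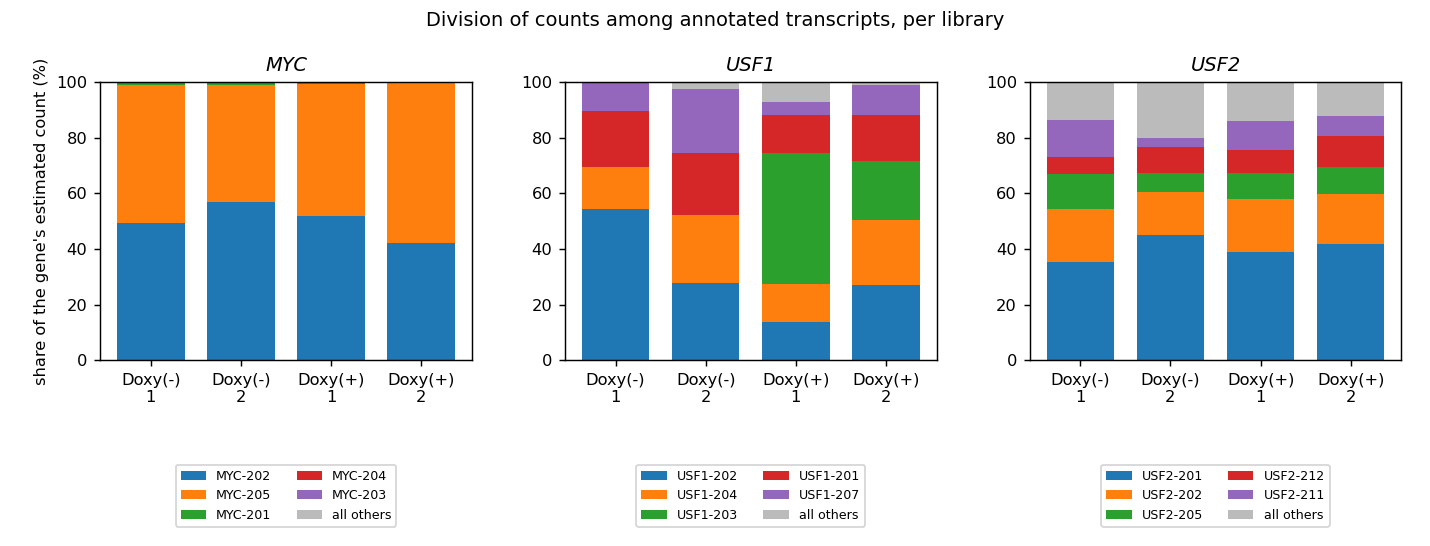
Share of each gene's estimated count (y axis, %) on its 5 most abundant annotated transcripts and on all others together, for MYC, USF1 and USF2, with 1 bar per library. USF1-203 holds 46.9% and 21.3% of USF1 in the Doxy(+) libraries and under 0.04% in the Doxy(-) libraries, while the 2 main MYC transcripts share its count in all 4 libraries.

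The rest of the MYC, MAX and MLX network was then examined from lists, which like the factors were chosen with earlier results known. Of the other 6 network genes, 5 were tested, 1 rose (20.0%) and 0 fell by edgeR and by DESeq2, and 3 had an unadjusted p under 0.05. The shares of all genes tested were 9.76% higher, 9.53% lower and 33.4% at an unadjusted p under 0.05. MGA, a large repressor that also pairs with MAX, rose from 123 and 124 CPM to 165 and 159 CPM (log2 fold change 0.39 with an SE of 0.0408, adjusted p 0.00208 in edgeR), the direction of MAX. MXD3 was at 15.4 and 15.9 against 13.0 and 10.1 CPM, with a log2 fold change of -0.43 (edgeR adjusted p 0.0876). MLXIP, the partner of MLX, was at 136 CPM in each Doxy(-) library and at 128 and 121 CPM in Doxy(+) (log2 fold change -0.13, edgeR adjusted p 0.0996). MLXIPL and MYCL were low, at 0.621 to 1.24 CPM and 4.58 to 6.21 CPM, and did not pass, and MYCN had 0 counts in every library and was not tested.

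Among listed target genes of MYC, LDHA, DDX21 and 13 others fell. Whether MYC drives them in these cells was not tested. Of 30 targets with roles in growth and ribosome production, 29 were tested, 15 fell and 1 rose. This is 51.7% lower, against 9.53% of all genes tested and 12.7% of those whose mean reached 10 CPM. The median log2 fold change was -0.16, with 24 of 29 below 0. DESeq2 also gave 15 lower and 1 higher. In edgeR, 19 of the 29 had an unadjusted p under 0.05, beside 33.4% of all genes and 40% of those whose mean reached 10 CPM. No test of the list as a whole was made. LDHA, which makes lactate, was at 534 and 533 CPM in Doxy(-) against 398 and 399.9 CPM in Doxy(+) (log2 fold change -0.42 with an SE of 0.0282, adjusted p 0.000447 in edgeR). DDX21, a helicase of the nucleolus, was at 470.5 and 489 against 377 and 371 CPM (log2 fold change -0.36, edgeR adjusted p 0.00132). All 15 had log2 fold changes smaller in size than that of MYC. The gene that rose was CDK4, a kinase of the G1 phase, from 262 and 238 CPM to 383 and 359.6 CPM (log2 fold change 0.57, edgeR adjusted p 0.00165). The number lower was 7 without Doxy(+) 1 and also without Doxy(+) 2, 7 with length-scaled counts, 5 with limma on filtered log2 TPM values and 0 with limma without a filter.

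Of 16 cofactors of MYC and of the antagonists tested, 2 fell (12.5%) and 0 rose by edgeR and by DESeq2, and 5 had an unadjusted p under 0.05. The share that fell is near the background, 9.53% of all genes tested and 12.7% of those whose mean reached 10 CPM, and 33.4% of all genes had an unadjusted p under 0.05. The number higher was 1 without Doxy(-) 1, without Doxy(+) 1 and without Doxy(+) 2, and 0 without Doxy(-) 2. WDR5, named after its values were seen, was at 15.2 and 10.5 CPM in Doxy(-) but at 0 and 33.4 CPM in the Doxy(+) libraries, so its mean rests on 1 library. The 2 were the paired helicases RUVBL2, at 156 and 151 against 120.5 and 121 CPM (log2 fold change -0.35, edgeR adjusted p 0.0028), and RUVBL1, at 110.2 and 112 against 90.9 and 87.0 CPM (log2 fold change -0.32, edgeR adjusted p 0.00644). Among 6 tested targets of MLX and its partners, 2 fell (33.3%) and 0 rose in edgeR, 1 fell and 0 rose in DESeq2, and 3 had an unadjusted p under 0.05, beside the same shares of all genes. These were TXNIP, an inhibitor of glucose uptake, at 69.9 and 69.7 against 49.1 and 50.9 CPM (log2 fold change -0.48, edgeR adjusted p 0.00257), and its relative ARRDC3, at 13.7 and 13.3 against 9.71 and 9.46 CPM (log2 fold change -0.49, edgeR adjusted p 0.0282). MLX itself did not pass, as given above. The number of these targets lower was 1 whichever library was left out, and the number higher was 1 without Doxy(-) 1.

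Of 22 other factors of the basic helix-loop-helix class, 20 were tested, 4 rose (20.0%) and 1 fell (5.0%) in edgeR, beside 9.76% and 9.53% of all genes tested. In DESeq2, 3 rose and 0 fell. An unadjusted p under 0.05 in edgeR was seen for 6 of the 20, and for 33.4% of all genes. SREBF1, which drives lipid synthesis, rose from 96.3 and 87.4 CPM to 157 and 175 CPM (log2 fold change 0.85 with an SE of 0.0708, adjusted p 0.000903 in edgeR). EPAS1 (HIF-2 alpha), a hypoxia factor, rose from 329.8 and 340.4 CPM to 424 and 428 CPM (log2 fold change 0.35, edgeR adjusted p 0.0013). The other genes that rose were BHLHE41, described above, and ID2, also named after its values were seen, at 4.03 and 4.08 against 7.22 and 6.63 CPM, and the gene that fell was ID1, at 18.4 and 18.0 against 13.5 and 13.6 CPM (log2 fold change -0.42, edgeR adjusted p 0.0278). ID1 and ID2 lack the basic region and block other factors of the class. The number lower was 0 without Doxy(-) 1, without Doxy(-) 2 and without Doxy(+) 1, and 2 without Doxy(+) 2. The relatives of TFE3 did not pass, with MITF at a log2 fold change of -0.32 and TFEB at 0.21, and TFEC, at 0.0776 to 0.311 CPM, was not tested. USF3, a larger relative of USF1 and USF2, was at 40.5 and 42.5 against 42.1 and 44.9 CPM (log2 fold change 0.068, edgeR adjusted p 0.510).

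In the circadian clock, where BHLHE40 and BHLHE41 act as repressors, 3 of 16 genes rose (18.8%) and 0 fell in edgeR, beside 9.76% and 9.53% of all genes tested, and 1 rose and 0 fell in DESeq2. PER3 rose from 26.4 ± 0.0362 to 33.6 ± 0.510 CPM (SD, log2 fold change 0.35, SE 0.0669, edgeR adjusted p 0.0172). DBP was at 2.02 and 2.65 against 4.43 and 4.92 CPM (log2 fold change 0.99, edgeR adjusted p 0.0383) and RORA at 0.776 and 1.02 against 2.10 and 2.61 CPM (log2 fold change 1.37, edgeR adjusted p 0.04), so that RORA rests on few reads. RORA was the single gene of the 6 lists past both limits. The number higher was 0 without Doxy(+) 1 and also without Doxy(+) 2, and 1 without Doxy(-) 1. The activators CLOCK and BMAL1, which bind E-boxes as a pair, had log2 fold changes of -0.082 and -0.14 and did not pass, nor did NPAS2 (0.51, edgeR adjusted p 0.0778) or NR1D1 (0.75, edgeR adjusted p 0.0552). At an unadjusted p under 0.05 there were 5 of the 16, and 33.4% of all genes.

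**Figure D5:**
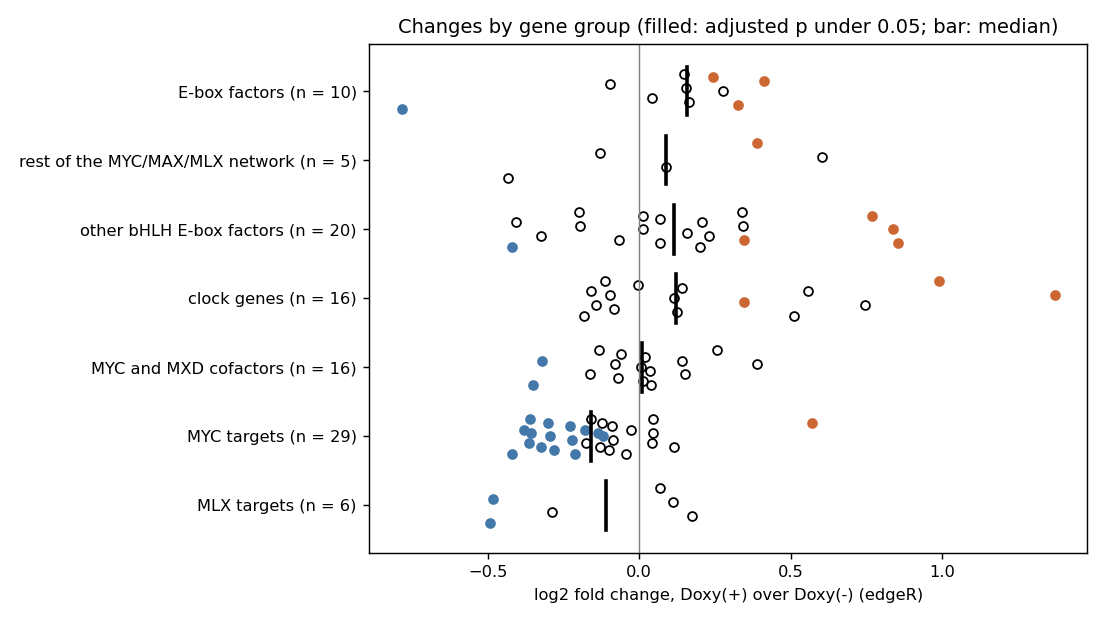
Log2 fold change, Doxy(+) over Doxy(-), of each tested gene (x axis) in the 10 E-box factors and in 6 lists, with the median of each as a bar; orange and blue points passed an adjusted p of 0.05 as higher or lower. MYC targets lie mostly below 0, with a median of -0.16 and 15 of 29 lower, and RORA at 1.37 is the point furthest to the right.

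The genes whose pattern was most like that of each factor that passed were found by the distance over the 4 libraries between log2 CPM values centred on the gene's mean, among 9608 other genes whose mean reached 10 CPM. For MYC this was ZNF250, a zinc finger gene, at 27.4 and 30.9 CPM in Doxy(-) against 16.9 and 17.1 CPM in Doxy(+) (distance 0.0196). For MAX it was OAF, at 24.7 and 26.6 against 31.5 and 33.3 CPM (distance 0.0166). For USF2 it was GLA, the lysosomal alpha-galactosidase, at 32.8 and 32.5 against 43.8 and 43.2 CPM (distance 0.0116). For BHLHE40 it was CHST12, a sulfotransferase gene, at 13.9 and 14.3 against 15.9 and 17.4 CPM (distance 0.0051), which did not pass the test itself. With 4 libraries, many genes have such patterns, and the likeness is a description.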

How the data were processed

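PolyA RNA of 4 HK-2 samples was sequenced from stranded TruSeq libraries. Per the study's methods and the submitters' processing notes, reads were trimmed with Trim Galore 0.6.6 (cutadapt 2.5), aligned to hg38 with STAR 2.7.9a and quantified with RSEM. The deposited files instead have the columns that kallisto writes. Per Ensembl transcript, the deposited files give estimated counts, which are expected counts and not normalized, and the deposited TPM values were scaled by the authors' quantifier. The methods give a version of RSEM and an annotation from UCSC hg38, but the version of the tool that wrote these columns, the Ensembl release of the identifiers and the use of strand in counting are not given in the sources used here.

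Of 180253 transcript identifiers, 150691 (83.6%) matched GENCODE release 44 on hg38. The others, 9.66% to 9.89% of each library's count, stayed out. Counts were summed per gene, rounded and passed to edgeR 4.0.16 under R 4.3.3 (glmQLFit and glmQLFTest, TMM, filterByExpr, group as the only term), with Benjamini-Hochberg adjustment. "Rose" and "fell" mean an adjusted p under 0.05. Standard errors and 95% intervals follow from the F statistic and its degrees of freedom. TPM was summed per gene. The steps were checked on simulated counts. Alternatives used DESeq2 1.42.0, limma 3.58.1 (with a mean-variance trend) and other filters, scalings and gene sums. Depth limits low genes. The approximate upper 95% limit for a count of 0 is 3 counts, which come to 0.200 to 0.237 CPM. This limit covers counting error only. The members and lists were chosen with earlier results of these data known.

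Named were the 10 factors, TFE3 and PRCC, whatever their result, then from each list the 2 genes with the smallest p that passed in each direction, with any gene of the small network list and the clock list, the TFE3 relatives and USF3 allowed, and the gene most like each factor that passed. The planned look at the proteins' basic regions was not made, as no protein table was used here. The result of 1 marker gene is not reported here.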

Additional observations from a re-analysis of the deposited data

How the results depend on the processing

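Every factor's log2 fold change was recomputed under 15 other settings. MYC, TFE3 and the 0 factors past both limits were the same in all of them, and USF2 lost its call in 1, limma on log2(TPM + 1) without a filter on low values (0.52, adjusted p 0.0753). MAX was over the threshold with limma on log2(TPM + 1) (0.40, with and without the filter) and log2(TPM + 0.1) (0.41), length-scaled counts (0.37) and the unmatched identifiers tested beside the genes (0.33). BHLHE40 was over it with RLE size factors (0.24), no filter on low counts (0.23), DESeq2 (0.24), limma (0.23 with log2(TPM + 1), with and without the filter, and 0.24 with log2(TPM + 0.1)), length-scaled counts (0.21) and the unmatched identifiers (0.24). Leaving out 1 library at a time gave 0.26 to 0.39 for MAX and 0.18 to 0.30 for BHLHE40, with 1 to 2 factors higher. The number higher was 1 under both filtered limma settings, length-scaled counts and the unmatched identifiers, and 0 under limma without a filter. The cause was not tested.

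Signs that turned belonged to values that did not pass: MXD4 under limma (0.0027), MXI1 with length-scaled counts (-0.0047), MLX under limma (-0.021) and with length-scaled counts (-0.057), and PRCC under limma (-0.15) and with length-scaled counts (-0.19). Without 1 library, MLX ranged from -0.020 to 0.10 and PRCC from -0.029 to 0.30.

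Over the 6 lists, 9 genes were higher and 20 lower. Both filtered limma settings gave 4 and 7, limma without a filter 1 and 0, length-scaled counts 5 and 11 and the unmatched identifiers 4 and 12, and leaving out a library gave 6 to 8 higher and 11 to 20 lower. Genes of the lists past both limits numbered 1, but 0 under DESeq2, limma, length-scaled counts and the unmatched identifiers, 0 to 1 without a library and 2 with the replicate block. Over all genes tested, 1325 were higher and 1293 lower. These became 598 and 306 with limma on log2(TPM + 1), 590 and 299 on log2(TPM + 0.1), 133 and 72 without a filter, 677 and 583 with length-scaled counts, 644 and 616 with the unmatched identifiers, 647 and 565 without Doxy(+) 1 and 686 and 642 without Doxy(+) 2. Fits without a library assume that the lone library varies like the other group.

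The numbers 1 and 2 are not said to pair the libraries, and the deviations of same-numbered libraries correlated at -0.0147 over genes. With the replicate number as a block, 3 factors were higher and 1 lower, and the lists gave 9 higher and 19 lower. With the upstream 250 bases alone, the number of factors with each motif was the same as in the full windows. Members' transcripts past the threshold numbered 0 in every setting run for them.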
